A study of Myzus persicae with 16 samples.

Results

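The transcript response of habituated green peach aphids, Myzus persicae, to their alarm pheromone was measured on 4 of the 16 arrays of the study, those whose titles set exposed against solvent-treated aphids reared on 35S:EBFS plants. The pheromone is (E)-beta-farnesene, EBF, a volatile sesquiterpene. Aphids of the red tobacco adapted strain had lived for at least 6 months on Arabidopsis thaliana plants, with days of 16 h and nights of 8 h. Habituated aphids came from 35S:EBFS plants, in which the 35S promoter, active in most plant tissues, drives an EBF synthase. Aphids called non-habituated came from the wild type Col-0. Pools of 50 aphids received 1 µg of EBF in hexane, or hexane alone, for 30 min. Both channels of the 4 arrays therefore hold RNA of aphids that had lived in constant EBF, and they differ in the 30 min exposure. RNA came from whole aphids, so a change in 1 tissue and a change in the share of that tissue cannot be told apart. The labels leave unsaid whether an RNA extract was used on more than 1 array, so every p-value measures the spread between arrays, part of which may be technical.

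EBF is released in droplets from the cornicles of an attacked aphid. Neighbouring aphids react by pulling out their stylets, walking away or dropping from the plant. Habituation is the loss of such a reaction after lasting exposure to a stimulus that brings no harm. In insects, odours are detected by receptors on antennal neurons, to which odorant-binding proteins carry hydrophobic molecules, and volatile compounds are cleared by enzymes such as cytochromes P450. How far the transcripts of such aphids still move when EBF arrives is the question these 4 arrays address.

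Each array carried 15744 spots, of which 1116 were controls and 14628 were aphid probes with 10489 contig identifiers. The files pair no identifier with a gene name, and none is found (0 matches) in the table of RefSeq genes for this species (assembly MPER_G0061.0), so no pathway could be counted and transcripts are given by their contig names. A probe was tested where its signal was well above background in at least 2 of the 4 channels of exposed aphids or of solvent-treated aphids, which left 12963 probes of 9090 identifiers. This filter read these 4 arrays alone, and the same probes were used where other arrays of the study entered. Alexa Fluor 555, AF555, marked the exposed aphids on arrays 1 and 3, and Alexa Fluor 647, AF647, marked them on arrays 2 and 4. Median AF555 signals were 1398, 1407, 1257 and 945 on arrays 1 to 4, and median AF647 signals were 1660, 1179, 1734 and 1353. The share of probes well above background was 85.6% to 89.0% over the 8 channels. Saturation lay mainly in AF647, with 500 to 618 saturated probes per array against 4 to 75 in AF555. All 4 arrays shared a slide with the arrays that compared solvent-treated aphids of both rearings.

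All ratios are given as log2 of exposed over solvent-treated aphids, in the direction of the dyes that the labels state, and a positive value means more signal after EBF. This direction rests on the labels of the arrays alone, and values that bear on it are given with the spike-in controls and with the loop of array groups further on. Each array was normalized so that its ratios centre on 0, and a change that all transcripts shared would not appear in them.

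Fitted responses of habituated aphids to 30 min of EBF were small at most probes. The fitted response, the mean over both dye orientations, had a standard deviation (SD) of 0.25 across the 12963 probes and a median of -0.0035. The middle 90% of probes lay between -0.36 and 0.43, and 94.0% of probes lay within 0.5 of 0. Above 0.5 there were 444 probes, and below -0.5 there were 328. A change of more than 2-fold was fitted for 64 probes, or 0.494% of those tested, of which 24 probes of 16 identifiers were higher after EBF and 40 probes of 25 identifiers were lower. The number beyond 2-fold was 99 with plain subtraction of the background and 153 with the scanner's processed signals, against 64 without background correction. Of the 64 probes, 21 had the same sign on all 4 arrays. Among all 12929 probes with a value on every array, 26.6% did so. Fitted values ran from -1.67 to 1.50.

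No probe passed an adjusted p of 0.05 (0% called) in limma's moderated test with a dye effect per probe and Benjamini-Hochberg adjustment over all 12963 probes, and the smallest adjusted p was 0.0570. An unadjusted p under 0.05 was reached by 3023 probes, or 23.3%, where 648 would be expected if no transcript differed. Of these, 1745 were higher after EBF and 1278 were lower. The median standard error (SE) of a fitted value was 0.079, and the fit left 2 residual degrees of freedom per probe. At the looser adjusted p of 0.10, limma called 607 probes of 484 identifiers, 444 higher and 163 lower, and 436 of these probes had 1 sign on all 4 arrays. A test that exchanges the signs of the 4 arrays cannot go below p = 0.125 in an exact permutation. The number of calls turned on single arrays. It was 477, 8 and 1536 without array 2, array 3 and array 4, and 0 without array 1. In each of these fits 1 of the 3 arrays kept is alone in its dye orientation.

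Arrays of the same dye orientation were more alike than arrays of opposite orientation. Arrays 2 and 4, with exposed aphids in AF647, correlated across probes at r = 0.66. Arrays 1 and 3, with exposed aphids in AF555, correlated at r = 0.32. The 4 pairs of opposite orientation gave r = 0.07 for arrays 1 and 2, 0.02 for arrays 1 and 4, -0.11 for arrays 2 and 3, and -0.12 for arrays 3 and 4. Probes are not replicates, and arrays of 1 orientation share the dye effect of each probe, so these values are descriptions.

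**Figure D1:**
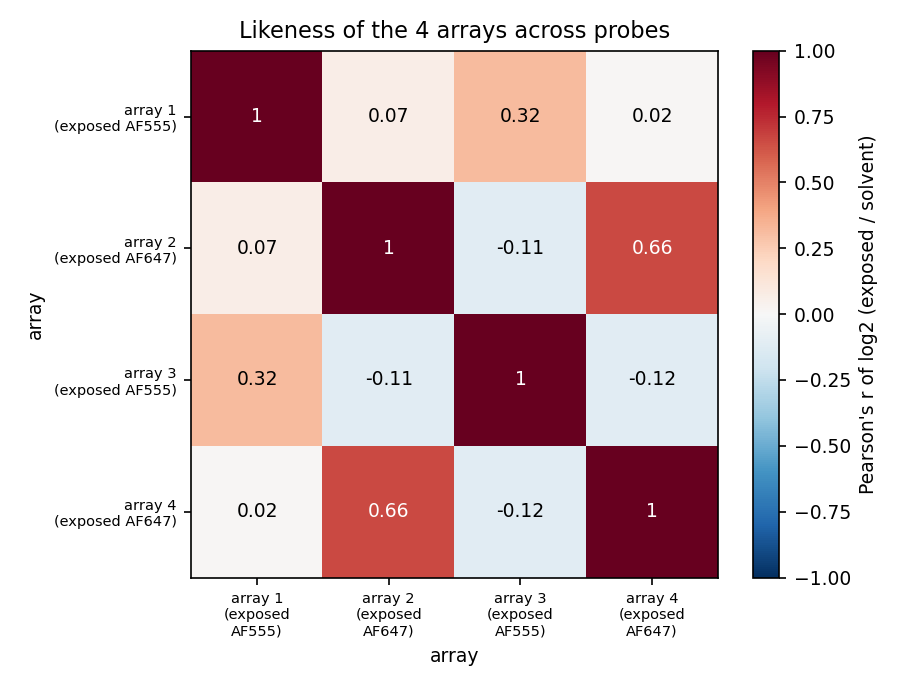
Pearson's r across the tested probes between the log2 ratios (exposed over solvent) of the 4 arrays, as colour and as a printed number, with the dye of the exposed aphids in each axis label. The pairs of equal orientation stand at 0.66 and 0.32, and the pairs of opposite orientation stand between -0.12 and 0.07.

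The dye effect, the part of a ratio that stays with the dye, had an SD of 0.26 across probes, about as wide as that of the response. It reached an unadjusted p under 0.05 at 2758 probes and an adjusted p under 0.05 in limma at 3 probes, or 0.0231%. Signs on single arrays were counted as well. Of 12929 probes with a value on every array, 1765 were positive on all 4 and 1670 were negative on all 4, together 3435 or 26.6%, while 4008 were positive on 2 arrays. At 2888 of these 4008 the 2 positive arrays were those of 1 dye orientation. Of the 3023 probes with an unadjusted p under 0.05, 1007 did not have 1 sign on all 4 arrays.

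Averaging an array of each orientation removes the dye effect from a pair, and such pairs were alike. The means of arrays 1 and 2 correlated with the means of arrays 3 and 4 at r = 0.52, and the means of arrays 1 and 4 with those of arrays 2 and 3 at r = 0.57. The same pair values for non-habituated aphids, exposed over solvent-treated, were 0.47 and 0.46. Probes picked on one pair can be read on the other, which did not choose them. The 28 probes above 1 on the mean of arrays 1 and 2 had a median of 1.15 there and of 0.91 on arrays 3 and 4, and all 28 kept their sign. The 125 probes below -1 on arrays 1 and 2 had a median of -1.28 there and of -0.30 on arrays 3 and 4, with 91 of 125 keeping their sign. With this choice of pair, high values came back closer to their size than low values did.

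Picked on arrays 3 and 4 instead, 50 probes above 1 went from a median of 1.17 to 0.77 on arrays 1 and 2, and 44 kept their sign. The 28 probes below -1 went from -1.24 to -0.99, and 23 kept their sign. Here the low values came back closer to their size, so this contrast between high and low turned with the pair that picked. All 4 arrays also held values far out, most of which did not have 1 sign on all 4 arrays. Signs can split through the dye effect, so such a value may still repeat on the array of the same orientation. A probe of contig4306 with a large dye effect read -0.52, 2.64, -0.47 and 2.40. Of the 12929 probes with a value on every array, 1670 were negative and 1765 positive on all 4. Array 1 had 29 probes of 17 identifiers below -2 and none above 2, and 7 of the 29 were negative on all 4 arrays. Array 2 had 67 probes below -2, of which 15 were negative on all 4 arrays, and 30 above 2, of which 0 were positive on all 4. Array 3 had 10 probes below -2 and 13 above 2, and none of them had 1 sign on all 4 arrays (0 of each). Array 4 had 20 below -2 and 32 above 2, of which 2 and 4 had 1 sign on all 4 arrays. The range of single values was -5.54 to 1.83 on array 1, -4.18 to 4.06 on array 2, -2.76 to 3.16 on array 3 and -4.03 to 4.24 on array 4.

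**Figure D2:**
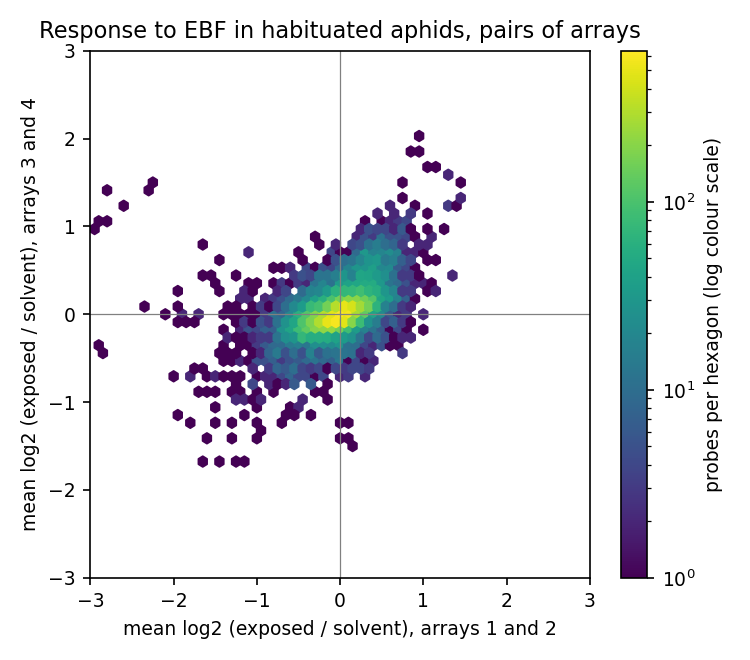
Mean log2 ratio (exposed over solvent) of arrays 1 and 2 (x) against arrays 3 and 4 (y) for each probe, with colour for the number of probes per hexagon on a log scale. The cloud runs along the diagonal (r = 0.52), and a few probes lie far left, near -3 on arrays 1 and 2, with values on arrays 3 and 4 near or above 0.

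The lowest single values were on array 1, where 16 probes of 9 identifiers lay below -3, between -5.54 and -3.21. The same 16 probes ran from -1.22 to 1.13 on array 2, from -1.25 to 2.66 on array 3 and from -0.36 to 0.76 on array 4. On array 3, 12 of the 16 were positive. Only 2 of them had an unadjusted p under 0.05 in limma.

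Single transcripts were picked by a fixed rule, namely the 2 positive and the 2 negative identifiers with the smallest p among probes of 1 sign on all 4 arrays and no saturated channel. These ratios were chosen for a small p in the fit with a dye effect, which does not require like values on all arrays, and are given as descriptions. Each had an adjusted p of 0.0570 in limma, the smallest of any probe. Further probes with a larger unadjusted p shared that value, such as a probe of contig1136, so it does not single these transcripts out.

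Transcript contig8660 had ratios of 0.16, 1.54, 0.13 and 1.64 on arrays 1 to 4. Its raw median signals were 371, 538, 308 and 682 in exposed aphids and 399.5, 225, 380 and 157 in solvent-treated aphids. On arrays 1 and 3 the exposed channel was thus the dimmer one before normalization. All ratios were above 0, but arrays 1 and 3 lay close to 0 and arrays 2 and 4 more than 2-fold above it, and the sets of arrays that differ in dye do not overlap. The fitted response was 0.86 ± 0.063 (SE, n = 4 arrays), or 1.82-fold, with a limma 95% interval of 0.70 to 1.03, and the dye effect of this probe was 0.72. The SD over the 4 arrays, with the dye effect in it, was 0.83.

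Transcript contig4574 had ratios of 0.54, 1.14, 0.68 and 1.07. It too was higher on arrays 2 and 4 than on arrays 1 and 3, by less. Its raw median signals were 280, 360, 262 and 471 after EBF and 236, 191, 221 and 161.5 after solvent, with the exposed channel brighter on every array. The fit gave 0.86 ± 0.066 (SE, n = 4), 1.81-fold. Both of these positive transcripts were dim and had no second tested probe.

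Transcript contig1855 read lowest of those named, with ratios of -0.95, -1.61, -0.66 and -1.27. Its signals were 3533, 2264, 3303 and 2878 in exposed aphids against 8759, 6831, 7939 and 4554 in solvent-treated aphids, with no overlap between the conditions. The fit was -1.12 ± 0.095 (SE, n = 4), a 2.18-fold lower level. The second probe of contig1855 read -0.95, -1.67, -0.56 and -1.20, with a fit of -1.10 ± 0.12. The probes of this transcript thus gave nearly the same value on each array.

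Transcript contig3136 was the most even, with ratios of -0.67, -0.54, -0.69 and -0.62 and an SD of 0.069. Its signals were 22142, 48669, 19947.5 and 42373 in exposed aphids and 57498, 52467, 61366.5 and 31562 in solvent-treated aphids. The raw signals of the conditions overlap, and on array 4 the exposed channel was the brighter one before normalization. The fit was -0.63 ± 0.063 (SE, n = 4), 1.55-fold lower, and the second probe of contig3136 gave -0.60. This transcript lay near the top of the signal range, without a saturated spot.

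**Figure D3:**
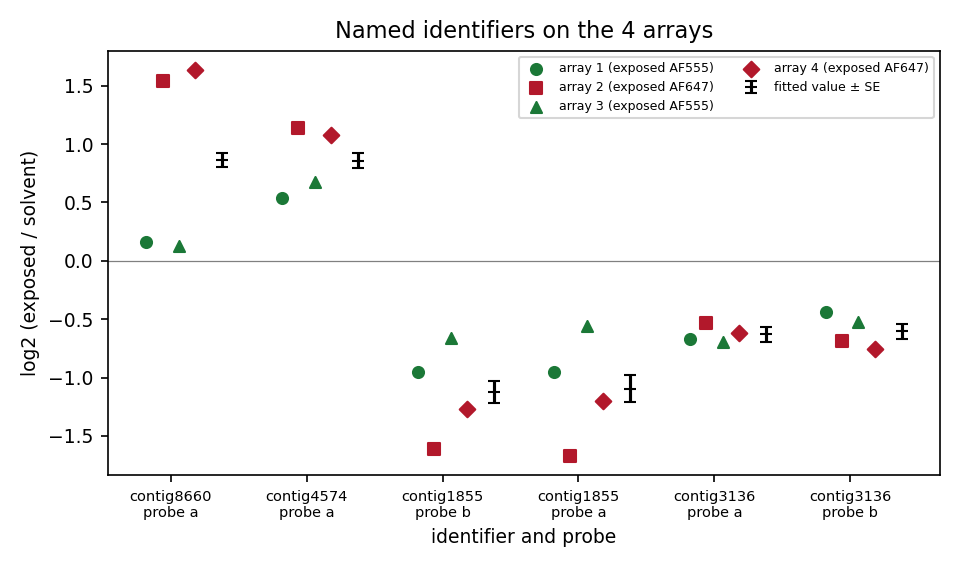
Log2 ratios (exposed over solvent, y) of contig8660, contig4574, contig1855 and contig3136 on each of the 4 arrays, with second probes where tested; colour gives the dye of the exposed aphids, and the bar at the right of each set is the fitted value with its SE. All points of contig8660 and contig4574 lie above 0, all of contig1855 and contig3136 below it, and contig8660 splits by dye into values of at most 0.16 and of at least 1.54.

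Second probes of an identifier repeated the measurement within an array, not the biology. For 3873 identifiers with a pair of tested probes, the fitted responses correlated at r = 0.94, with a median absolute difference of 0.037, and 90% of pairs differed by less than 0.13. At 1050 identifiers at least 1 probe had an unadjusted p under 0.05, and in 1021 of these both probes had the same sign.

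Dimmer probes reached an unadjusted p under 0.05 more often, and more of them were higher after EBF in the labelled direction. With the probes ordered by mean signal and divided into 4 sets of 3240 or 3241, the share with an unadjusted p under 0.05 was 28.1%, 24.9%, 21.2% and 19.1% from the dimmest to the brightest set. Among those, 64.0%, 56.1%, 56.7% and 51.6% were higher after EBF, and with the arrays turned the same shares would be lower. Changes of more than 2-fold at dim probes depended on the background correction. The dimmest set had 0 higher and 3 lower, but 13 and 15 with plain subtraction and 48 and 34 with processed signals. The brightest set had 15 higher and 20 lower, 15 and 22 with subtraction, and 15 and 21 with processed signals. In the dimmest set, contig8660 read 1.04 with subtraction and 1.17 with processed signals, and contig4574 was also beyond 2-fold with both, at 1.19 with processed signals. The 668 probes with a saturated channel on at least 1 of the 4 arrays had an SD of 0.33, against 0.25 in the 12295 others, and 21.6% and 23.4% had an unadjusted p under 0.05.

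**Figure D4:**
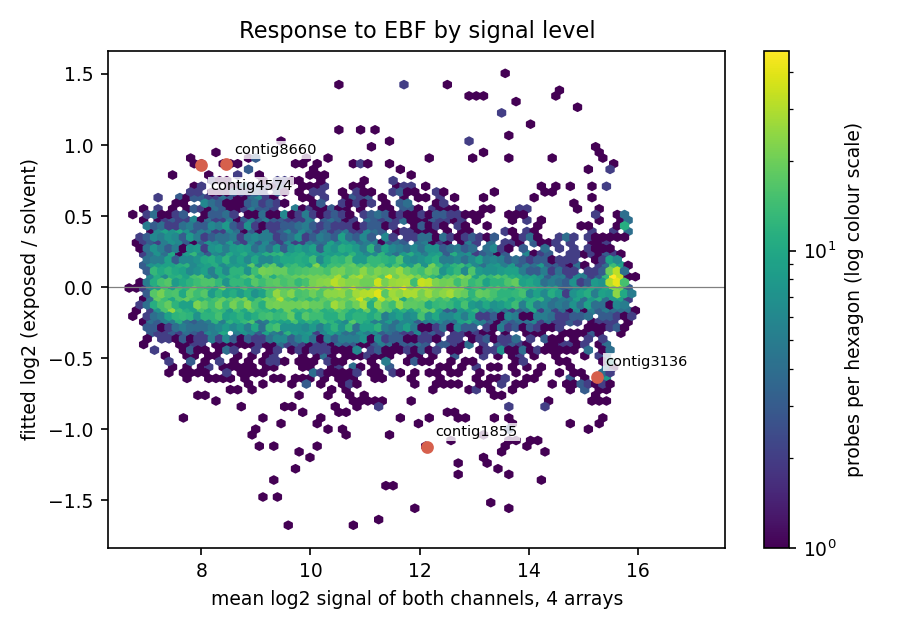
Fitted log2 response (exposed over solvent, y) against the mean log2 signal of both channels over the 4 arrays (x), with colour for the number of probes per hexagon on a log scale and the 4 named transcripts as red points. The cloud keeps about the same width from dim to bright probes, and contig8660 and contig4574 lie at the dim end.

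Spike-in RNA had been added to each sample before amplification, and its signal was read relative to that of the aphid probes. There were 10 such controls with 20 spots each, and 6 of them had no saturated spot on these arrays. Scaled to the median aphid probe, the control named n11 read 2.15, -0.24, 2.30 and -0.84 on arrays 1 to 4, and the control named 3 read -0.61, 2.92, -0.51 and 2.30. Most of the 6 controls split by dye, some high on arrays 1 and 3 and others high on arrays 2 and 4. The kit named in the labels, Agilent's for 2-colour arrays, holds the same transcripts in a pair of mixtures of unlike proportions, usually 1 for each dye, and which mixture went into which sample is not given in the sources used here. Their means over both orientations were close together, from 0.84 to 1.03 with a median of 0.97, which is 1.96-fold more spike-in signal, relative to aphid signal, in the exposed channel. The part that stayed with the dye, and with the mixture if mixtures followed dyes, ran from -1.53 to 1.59 between controls. The median of these means was -0.65 for exposed over solvent-treated non-habituated aphids. It was -0.04 for exposed aphids, non-habituated over habituated, and -0.13 for solvent-treated aphids, habituated over non-habituated. Amounts of spike-in are not given either, and the part of this offset in the response was not tested.

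**Figure D5:**
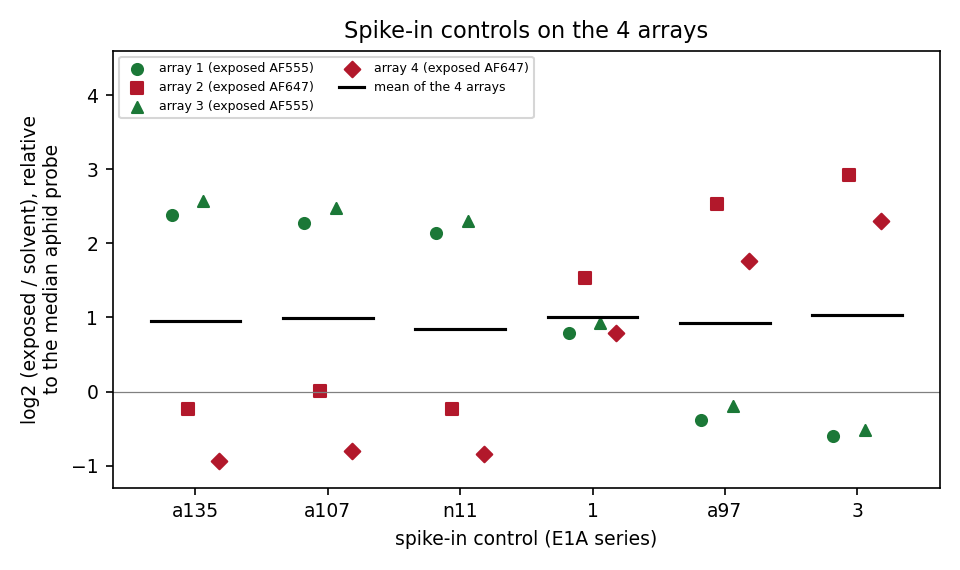
Log2 ratio (exposed over solvent, relative to the median aphid probe, y) of the 6 spike-in controls without saturated spots (x) on the 4 arrays, with colour for the dye of the exposed aphids and a line at the mean. Single arrays spread from -0.94 to 2.92, while the means lie between 0.84 and 1.03.

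The 4 array groups of the study form a closed loop, so the response of habituated aphids can also be reached through the other 12 arrays. That route starts from the response of non-habituated aphids and subtracts the differences between rearings. These were taken as titled, non-habituated over habituated for exposed aphids and habituated over non-habituated for solvent-treated aphids. Over the loop as a whole, with all 16 arrays in 1 fit, 0 probes (0%) passed an adjusted p of 0.05 in limma, 372 had an unadjusted p under 0.05, and the smallest adjusted p was 0.999. Fitted responses had an SD of 0.17 there, against 0.25 on the 4 arrays alone, with a median SE of 0.13. The named transcripts were nearer to 0 in this fit, with 0.31 ± 0.40 for contig8660, 0.47 ± 0.27 for contig4574, -0.63 ± 0.26 for contig1855 and -0.36 ± 0.22 for contig3136 (SE, adjusted p = 0.999 each).

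By the route through the other 12 arrays, the same transcripts had fitted values of the opposite sign. The indirect values were -1.36 ± 0.66 for contig8660, -0.70 ± 0.45 for contig4574, 0.84 ± 0.22 for contig1855 and 0.46 ± 0.36 for contig3136 (SE). Over all probes the routes differed at 0 probes (0%) with an adjusted p under 0.05 in limma, the smallest being 0.0561, and at 1448 with an unadjusted p under 0.05. With the direction of the 4 direct arrays turned, a choice made after seeing the data, 334 probes had an unadjusted p under 0.05. With the exposed groups of both rearings turned instead the number was 2900, with the non-habituated response turned 2890, and with the solvent-treated groups turned 745. The spike-in controls gave 0.97 by the direct arrays and -0.47 by the other route. With the direct arrays alone turned, the controls gave -0.97 against -0.47. With both array groups of that slide turned, they gave -0.97 and -0.73. The probes were turned by single groups only, so no count of probes stands beside this last choice. The controls were not read with the other single groups turned, so their values do not single out a direction. Whether the labelled direction of an array group accounts for these values was not tested.

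The response of habituated aphids was set against that of non-habituated aphids, measured on 4 arrays of the other slide with the same exposure and no shared array. The difference passed an adjusted p of 0.05 in limma at 11 probes of 7 identifiers, or 0.0849% of the 12963 tested, and 3202 probes had an unadjusted p under 0.05. At 9 of the 11 the habituated response was the more positive, and the other 2 were both probes of contig1855. This tally holds for the labelled direction, in which the fitted responses of the rearings had opposite signs at all 11 probes. With the direct arrays turned, an alternative added after seeing the data, they had the same sign at all 11 and habituated minus non-habituated was positive at all 11, from 0.39 to 1.54, with 5 of them past the threshold. Over all probes, limma then called 478, of which 22 were the more positive in habituated aphids. Fitted responses at the 11 probes ran from -1.12 to 0.96 in habituated aphids and from -2.38 to 0.57 in non-habituated aphids, and 5 of the 11 had a saturated channel. Transcript contig1855 read 0.39, 1.03, 0.089 and 0.76 on the non-habituated arrays, above 0 on each, against values below 0 on each habituated array. Its difference was -1.69 ± 0.15 (SE, limma adjusted p = 0.0262), and that of its second probe -1.61 ± 0.16 (adjusted p = 0.0476). Turned, contig1855 would be above 0 on every array of both rearings, with a difference of 0.55 ± 0.15 (adjusted p = 0.117) and of 0.58 by its second probe (adjusted p = 0.143).

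The other 3 named transcripts did not pass this test. Non-habituated aphids gave fitted responses of 0.42 for contig8660, 0.50 for contig4574 and -0.10 for contig3136, with differences of 0.45, 0.35 and -0.52 (limma adjusted p = 0.134, 0.128 and 0.279). The number of calls moved with single arrays, to 0 without habituated array 1, 2 or 3 and to 35 without array 4, and to 3, 5, 81 and 4 without non-habituated arrays 1 to 4. It was also 0 with saturated spots left out and with 1 dye effect for both groups.

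The arrays of habituated aphids had less spread across probes than those of non-habituated aphids, and the spread also went with the slide. The probes compared had passed the filter on the habituated arrays alone, where 85.6% to 89.0% of aphid probes were well above background. On the non-habituated arrays that share was 76.4% to 81.4%, and the part of this filter in the spread was not tested. After the dye effect was taken out, the SD across probes was 0.34, 0.37, 0.29 and 0.28 on the habituated arrays and 0.53, 0.41, 0.41 and 0.45 on the non-habituated arrays. The groups did not overlap. The dye effect was fitted on these same arrays, so the values within a group are not independent of each other, which the permutation test below assumes. Their means were 0.318 ± 0.0417 and 0.450 ± 0.0566 (SD, n = 4 each), with p = 0.0286 in an exact two-sided permutation test, the smallest p that 4 against 4 arrays allow. With the dye effect left in, the SDs were 0.33, 0.54, 0.31 and 0.43 against 0.65, 0.49, 0.46 and 0.58, and the groups overlapped. Fitted values had an SD of 0.252 both in the habituated response and in the solvent-treated comparison of the same slide, against 0.343 for the non-habituated response and 0.356 for the exposed aphids of both rearings on the other slide. Each rearing's response was on a slide of its own, and no spot of the non-habituated arrays was saturated, so slide and rearing cannot be told apart in this difference.

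In the authors' deposited table, the column that matches this comparison held the plain mean of the 4 array ratios. It gave 0.86 for contig8660, 0.83 for contig4574, -1.12 for contig1855 and -0.64 for contig3136. The authors' deposited table listed 1950 probes with an unadjusted p under 0.05, 1114 higher and 836 lower, where 731 of all 14628 probes would be expected without any difference.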

How the data were processed

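Whole-aphid RNA with spike-in RNA was amplified, coupled to a dye and hybridized in pairs, per the labels' protocols. Per the file headers, the deposited spot intensity values were read by Feature Extraction, version 10.5.1.1. The submitters' processing notes name limma. The authors' deposited tables hold log2 ratios and p-values; the log2 ratios of the series table equal loess-normalized ratios without background correction to within 4.85e-08, with array medians from -0.0025 to 0.0026.

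Median signals were background-corrected (normexp, offset 50) and loess-normalized within each array, with control spots at weight 0 and 36 outlier spots left out, in limma 3.58.1 under R 4.3.3. The fit held the response and a dye effect, and 1665 dim probes were not tested. Scripts were tested on simulated data. The 4 arrays, the rule for named transcripts (the 2 highest-ranked in each direction by p, as above) and the tests were chosen with earlier results of these data known. The number of arrays limits the precision. Alternatives covered background, normalization, filters, saturation, array weights, dye terms, left-out arrays, the series table, spike-in scaling, turned arrays and a replicate block. Gene lists were not counted, since no probe could be named.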

Additional observations from a re-analysis of the deposited data

Results flagged for a closer look

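Array 2 had 75 saturated AF555 probes, against 12, 15 and 4 on the other 3 arrays. Its gap to the nearest of them was 0.845 of the whole range, above Dixon's 95% critical value for 4 samples. It was the only one of 16 such sets of values tested to pass, and chance passes about 1 in 20. Array 2 also had the widest ratios of the 4 arrays, with an SD of 0.54 and 5.72% of probes beyond 2-fold. Counted in either dye, 3.67% of its probes were saturated, against 4.22%, 4.05% and 3.42% on arrays 1, 3 and 4. The part of saturated spots in that width was not tested.

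The response to EBF differed between the rearings at 11 probes in limma's test of the difference. For contig1855 the difference, habituated minus non-habituated, was -1.69 by one probe and -1.61 by the other, with all 4 arrays of one rearing below 0 and all 4 of the other above 0 in the labelled direction. With the direct arrays turned, both rearings were above 0 and the differences were 0.55 and 0.58. The spread of ratios per array was 0.318 in habituated and 0.450 in non-habituated aphids, while the fitted SD was 0.252 in both comparisons of the first of these slides and 0.343 and 0.356 in those of the other. These rearings lay on different slides, so slide and rearing cannot be told apart, and the probes were filtered on the habituated arrays alone.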

How the results depend on the processing

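The count of 0 called probes on the 4 arrays also held in 14 of 18 alternatives. Leaving out each array in turn gave 0 to 1536. Scaling to the spike-in spots, added after seeing the data, moved all probes down by 0.93 and gave 12315 calls, 2 of them higher. It takes the same value from every probe of an array, so these calls follow from a shared shift and say nothing on single probes. Under that scaling contig8660 and contig4574 reversed to -0.063 and -0.071, and contig1855 and contig3136 read -2.05 and -1.56. Without it, the probes with an unadjusted p under 0.05 numbered 1361 to 4871. Of the named transcripts, contig8660 and contig4574 passed the threshold in 2 of 18 alternatives. The transcripts contig1855 and contig3136 passed in 3, of which 1 was the spike-in scaling.

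With all 16 arrays in 1 fit the count was 608 with array weights and 2 with the direct arrays turned. With the replicate block, for which the labels give only shared numbers, it stayed at 0, with 351 probes at an unadjusted p under 0.05 and a consensus correlation of 0.055. The difference between routes round the loop gave 2 calls with the replicate block, 1192 with the non-habituated response turned and 342 with the exposed groups turned. The dye effect gave 0 calls with plain subtraction, 1 with processed signals, 958 with median centring, 37 with probes well above background in all 8 channels, 31 with saturated spots left out and 13 with array weights. The difference between rearings gave 6 with plain subtraction, 0 with saturated spots left out, 0 with 1 dye effect, 478 with the direct arrays turned and 0 to 81 with an array left out. The causes were not tested, beyond fewer arrays or probes entering where some were left out.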
